A study of Mus musculus with 32 samples.

Results

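The genes described here encode the subunits of the proteasome and its activators, 48 of the 33924 genes in the count table, taken as every symbol that begins with Psma, Psmb, Psmc, Psmd or Psme followed by a number. Their RNA was counted in 32 libraries from sorted mouse blood progenitors. LSK cells, 16 of the libraries, lack lineage markers, carry Sca1 and Kit and include stem and multipotent progenitor cells, and MEP cells, the other 16, are progenitors of megakaryocytes and red cells. The labels of all 32 libraries give the genotype as Jak2v617f, an activating mutation of the kinase gene Jak2 that is known from myeloproliferative neoplasms. The mutant allele was switched on ex vivo with Dre mRNA, the cells were then given to lethally irradiated recipients, and tamoxifen activated Cre to delete the mutant allele again. In batch A, cells came from vehicle mice (4 LSK and 3 MEP libraries, day 0 in the labels), from mice after 3 days of tamoxifen (3 and 4) and from mice after 7 days of it (4 and 3). In batch C they came from vehicle mice (2 and 3, also day 0) and from mice treated for 7 days with ruxolitinib, which inhibits the kinases JAK1 and JAK2 (3 and 3). Vehicle of the same batch served as the control of each treatment. No group with tamoxifen but without the deletable allele is described, the vehicle libraries are dated day 0, and no label gives the strain or age of the mice, so effects of tamoxifen, of time and of the deletion cannot be told apart. Nor can effects of ruxolitinib and of time, as the ruxolitinib libraries are dated day 7 and vehicle C day 0.

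The proteasome is the protease that degrades ubiquitin-tagged proteins in the cytosol and nucleus. Its 20S core is a barrel of alpha rings, which gate the entry, and beta rings, which hold the catalytic sites of Psmb5, Psmb6 and Psmb7. The 19S cap binds and unfolds substrates with a ring of ATPases (Psmc genes) and a set of other subunits (Psmd genes). Interferons induce the replacement subunits Psmb8, Psmb9 and Psmb10, which take the places of Psmb5, Psmb6 and Psmb7 in the immunoproteasome, and the activator Psme1 and Psme2, also called PA28. The immunoproteasome is known for making peptides for MHC class I molecules and is present in many blood cells without infection. Erythroid precursors, for their part, depend on proteolysis while they make haemoglobin and lose their organelles.

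By role, 31 of the 48 genes are constitutive subunits of the core and the cap, namely 7 of the alpha ring, 7 of the beta ring, 6 ATPases and 11 other cap subunits. The 5 interferon-induced genes are Psmb8, Psmb9, Psmb10, Psme1 and Psme2. Psmd5, Psmd9 and Psmd10 are chaperones of cap assembly, Psme3 is a nuclear activator and Psme4 encodes the activator PA200. Psma8 and Psmb11 are the testis and thymus forms of core subunits. Psmc3ip is a recombination factor that shares only its name, and Psmb5-ps, Psmb6-ps, Psmb7-ps2 and Psme2b-ps are pseudogenes. The filter on low counts kept 46 genes in each fit and removed Psmb7-ps2 and Psmb9. Psmb9 (chr17:34181987-34187764, minus strand, mm10) was listed with 0 counts in all 32 libraries, which allows at most 3 counts or 0.269 CPM (counts per 1e6 counts of the library) in the shallowest library. On opposite strands, 5.79% of its exon bases overlap its neighbour Tap1. The annotation and strand setting of the counting are not given, so whether its reads could be counted is unknown and the limit covers counting error only.

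Short stretches of the start regions that match known control elements are given as examples. They come from RefSeq windows on GRCm38.p6 that run from 250 bases before to 50 bases after the start. Windows were found for 37 of the 48 genes. Both strands were searched for the interferon element ISRE (GAAA, 2 bases of any kind and GAAA again), the interferon gamma element GAS (TTCNNNGAA, its own reverse complement) and the antioxidant element ARE (TGACNNNGC), the kind of site that Nfe2l1 and Nfe2l2 bind. Matches of different motifs overlapped in 0 of the 40 windows of these genes. The 4 sites shown are chosen matches in an induced subunit, an induced activator and 2 catalytic genes, written 5′ to 3′ on the strand of the gene with the motif in capitals. Distances are from the RefSeq starts, which for Psmb8 and Psme1 lie inside the longer GENCODE gene spans given further on.
Psmb8, GAS 97 bases before the start, chr17:34198088-34198117: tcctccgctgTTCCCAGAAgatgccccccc
Psme1, ISRE on the opposite strand 9 bases after the start, chr14:55578493-55578522: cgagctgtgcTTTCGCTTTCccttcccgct
Psmb5, ARE 47 bases before the start, chr14:54618023-54618052: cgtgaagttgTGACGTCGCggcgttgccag
Psmb6, ARE 9 bases before the start, chr11:70525338-70525367: ctaaagagagTGACGGAGCgctttacgacg
These matches describe letters, not binding. The ISRE pattern was in the windows of 4 genes of 37 (10.8%; Psmb3, Psmd4, Psmd9 and Psme1) against 3.44% of all 32851 windows. The GAS pattern was in 2 (5.41%; Psmb8 and Psmd2) against 8.3% of all windows. The ARE pattern was in 6 (16.2%; Psmb5, Psmb6, Psmc6, Psmd12, Psmd9 and Psme4) against 12.4%.

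Library totals ran from 11.2 M to 28.8 M counts in batch A and from 26.5 M to 55.5 M in batch C (M, 1e6), so low values are more precise in batch C. The 48 genes together took 0.81 to 1.34% of the counts in LSK libraries and 1.08 to 1.69% in MEP libraries. Jak2 averaged between 15.3 and 27.5 CPM in every group, but its counts cover the whole gene and so do not check the deletion. Of the sort markers, Ly6a, which encodes Sca1, was at 19.0 CPM or more in every LSK library and at 1.65 CPM or less in every MEP library. The 7 MEP markers together stood at 7257 to 10297 CPM in MEP libraries and at 434 to 3145 CPM in LSK libraries. The labels do not say whether libraries come from separate mice, so p-values measure the spread between libraries.

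Tests were edgeR's quasi-likelihood tests, and a gene is said to rise or fall, or to be higher or lower, only where its Benjamini-Hochberg adjusted p over all genes of the fit was under 0.05. The scaling of the libraries matters here, and each comparison is therefore given in 2 fits. The fit over all genes has 26930 genes for LSK, 25274 for MEP and 28378 for the joint fit. The fit over expressed genes keeps those with a mean of at least 10 CPM (9805, 8161 and 9259), of which 41 are proteasome genes. Between the fits the median log2 change of all genes moved from 0.21 to 0.02 for tamoxifen day 7 in MEP cells, from -1.07 to 0.00 for ruxolitinib in MEP cells, from -0.25 to -0.03 for ruxolitinib in LSK cells and from -0.27 to -0.11 for MEP against LSK cells in vehicle A. Library values below are plain CPM, without that scaling, and values per kilobase (kb) are CPM over transcript length.

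The constitutive proteasome was higher in MEP than in LSK cells and Psmb8 was lower. Under vehicle A, 28 of the 31 constitutive genes were higher in MEP cells, with a median log2 difference of 1.03, and 0 were lower. All 7 beta ring genes, 6 of 7 alpha ring genes, 6 of 6 ATPases and 9 of 11 other cap subunits were among them. Of all 48 genes, 31 were higher and 3 lower, when 8.7% of all genes tested were higher and 8.71% lower (17.4% in either direction). The summed level of the constitutive genes was 8151 ± 827 CPM in LSK cells (SD, n = 4) and 12786 ± 357 CPM in MEP cells (n = 3). Over expressed genes 32 genes were higher and 4 lower, 29 of the higher ones constitutive, when 55.9% of expressed genes differed. All 32 genes that passed the first fit and were in the second passed both in the same direction.

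The largest of these differences were in Psmd9, a chaperone of cap assembly, with a log2 difference of 1.75 ± 0.28 (SE, edgeR adjusted p = 1.5e-05), and Psmc2, a cap ATPase, with 1.59 ± 0.25 (1.58e-05). Of the exon bases of Psmd9, 25.5% are shared with Gm26745 on the other strand, as are 11.8% of those of Psmb7 with Nek6. Psmc2 read 245, 182, 221 and 217 CPM in the LSK vehicle A libraries and 474, 480 and 520 CPM in the MEP vehicle A libraries. The groups did not overlap for 29 of the 31 constitutive genes, each time with MEP above, when this held for 7.82% of all genes. Psmb4, a beta ring subunit without a catalytic site, differed by 1.44 ± 0.31. The catalytic genes Psmb5, Psmb6 and Psmb7 differed by 0.998 ± 0.27, 0.87 ± 0.26 and 1.38 ± 0.26 (edgeR adjusted p of 0.00771, 0.0179 and 0.000206). Psmb5 did not pass without MEP vehicle A replicate 1 (0.86, 0.0593), nor did Psmb6 without MEP vehicle A replicate 1 (0.72), LSK vehicle A replicate 3 (0.82) or replicate 4 (0.74). The constitutive genes that did not pass were Psma1 at 0.74 (adjusted p = 0.0505), Psmd8 at 0.66 and Psmd3 at -1.21.

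Psmb8, which replaces Psmb5 in the immunoproteasome, read 251, 272, 258 and 177 CPM in LSK vehicle A and 48.4, 21.1 and 31.3 CPM in MEP vehicle A. Every MEP library was thus below every LSK library. The log2 difference was -2.44 ± 0.42 in edgeR (adjusted p = 5.16e-05), a level 0.184 times that of LSK cells. Psmb8 lies on chromosome 17 (chr17:34197721-34201454, plus strand), and 14.7% of its exon bases are shared with Gm20496 on the other strand. Psmb10, the counterpart of Psmb7 (chr8:105935735-105938444, minus strand), read 230.3, 218, 134 and 155 CPM in LSK and 97.1, 66.7 and 90.9 CPM in MEP libraries. Psme1 (chr14:55578123-55581529, plus strand) read 265 to 362 CPM and 159 to 180.3 CPM. Its partner Psme2 (chr14:55587441-55591113, minus strand) read 204 to 330.0 CPM and 160.0 to 183 CPM. For all 4 measured induced genes every MEP library was below every LSK library in CPM, which held for 17% of all genes. The log2 differences of Psmb10, Psme1 and Psme2 were -0.77, -0.52 and -0.26 in the fit over all genes and did not pass (edgeR adjusted p of 0.144, 0.254 and 0.665). With only expressed genes fitted they were -1.04, -0.80 and -0.54, and all 3 passed (0.000936, 0.000139 and 0.0146).

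Per kb, Psmb8 and Psmb10 were each above 13 of the 31 constitutive genes in LSK cells, and Psme1 and Psme2 above 26. In MEP cells Psmb8 and Psmb10 were above 1 of the 31, Psme1 above 5 and Psme2 above 8. Psmb8 stood at 147 ± 26.2 CPM per kb in LSK vehicle A (SD, n = 4), against 158 for the median constitutive gene, and at 20.6 ± 8.49 in MEP vehicle A (n = 3), against 241. Psmb10 went from 141 ± 35.7 to 64.8 ± 12.3, Psme1 from 286 ± 43.5 to 155 ± 10.2 and Psme2 from 273 ± 53.8 to 176 ± 12.3 CPM per kb. In MEP cells the order per kb was Psme2, Psme1, Psmb10 and Psmb8, with each step larger than the SD of either neighbour. In LSK cells Psme1 and Psme2 differed by less than their SD, and so did Psmb8 and Psmb10. Among constitutive genes Psma7, of the alpha ring, was the highest in both (479 and 704 CPM per kb) and Psmd3 the lowest (34.2 and 12.9).

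The comparison was also made in vehicle of batch C. All 5 of its libraries carry the description number of a vehicle A library of the same cell type, and whether these are the same mice is not stated. There 26 genes were higher in MEP cells and 1, Psmb8, was lower, when 8.09% of all genes were higher and 8.46% lower (16.6% in either direction). Psmb8 read 321 and 395 CPM in LSK and 63.6, 25.3 and 21.96 CPM in MEP libraries, a log2 difference of -2.85 ± 0.47 in edgeR (adjusted p = 2.29e-05). The largest rises were again Psmd9 (1.94 ± 0.36) and Psmc2 (1.79 ± 0.32), then Psmd11, a cap subunit (1.48 ± 0.32), and Psmb7 (1.47 ± 0.33). Constitutive genes made up 23 of the 26. Psmd3 and Psme3, below 0 in vehicle A at -1.21 and -1.15, were above 0 in vehicle C, at 0.49 and 0.50, and passed in neither. Among expressed genes 31 were higher and the 4 measured induced genes were all lower, when 48.7% of expressed genes differed. The count of 27 genes in the fit over all genes fell to 9 without LSK vehicle C replicate 1 and to 10 without replicate 2, as that group has 2 libraries, and to 16 without MEP vehicle C replicate 3.

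**Figure D1:**
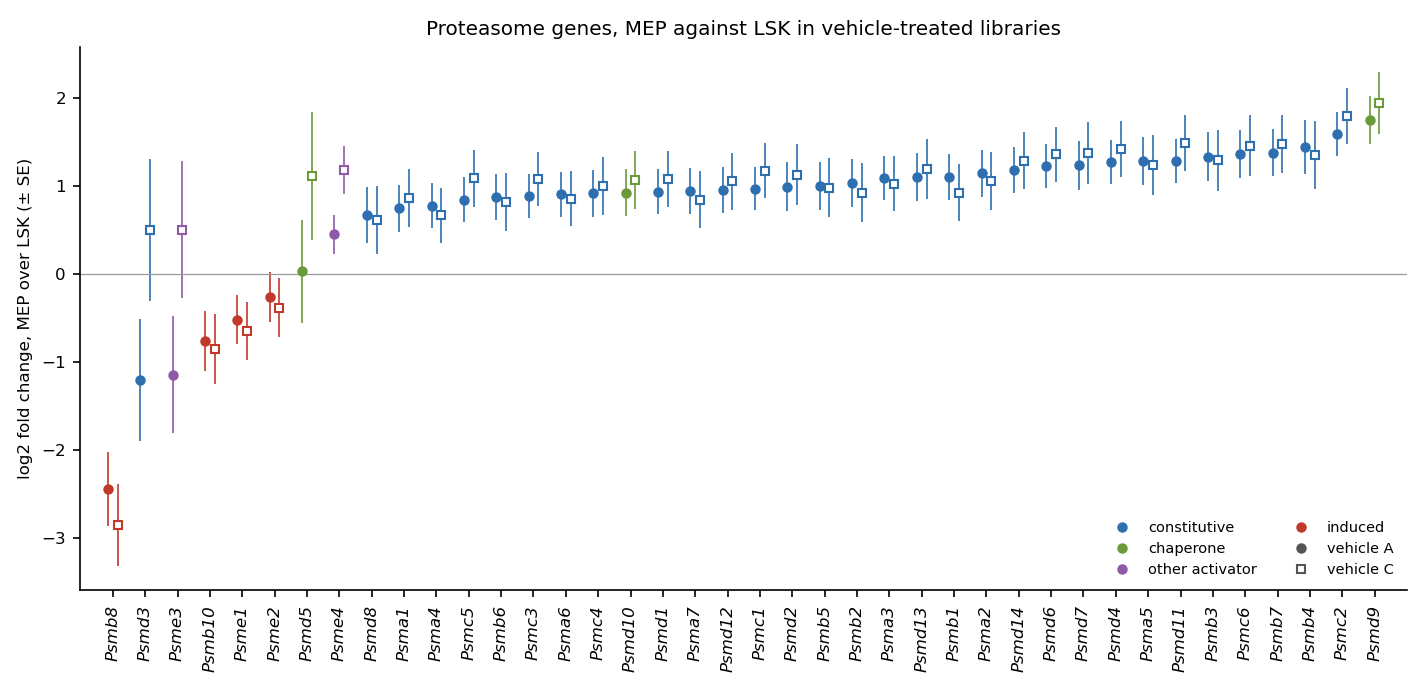
Log2 difference of MEP over LSK cells (y axis) for each constitutive, induced, chaperone and activator gene (x axis), under vehicle A and vehicle C, from the fit over all genes; bars are SE. Psmb8 stands lowest at -2.44 and -2.85, and most constitutive genes lie near the median of 1.03.

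Markers of other cells differed between the sorts as well. The summed T and NK cell markers, mostly Nkg7, stood at 226 to 391 CPM in LSK vehicle A and 7.14 to 26.1 CPM in MEP vehicle A, and the B and plasma cell markers at 643 to 13947 CPM and 4.45 to 6.15 CPM. Macrophage markers stood at 89.6 to 4886 CPM in LSK vehicle A and 12.9 to 27.8 CPM in MEP vehicle A. Trbc2 and Gzma were under 1 CPM in both groups. The part of such cells in the Psmb8 difference was not tested. In bulk libraries fewer cells of a type and less RNA per cell cannot be told apart.

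Of the genes followed beside the proteasome, Irf1 and Nlrc5 were also lower in MEP than in LSK cells under vehicle A. Their part in the levels of the induced subunits was not tested. Irf1, a transcription factor of the interferon response, stood at a log2 difference of -4.15 ± 0.65 (edgeR adjusted p = 1.24e-05). Nlrc5, the activator of MHC class I genes, was lower too, at -1.31 ± 0.40 (0.0194). Tap1, the peptide transporter, was at -0.94 and Nfe2l1, the activator of proteasome genes, at -0.61, and neither passed. Of 28 interferon response genes 1 was higher and 16 lower in MEP cells, with Irf1, Irf8 (-4.03), Oasl2 (-3.59) and Rtp4 (-3.28) the largest. Of 14 genes of MHC class I processing 1 was higher and 7 lower, led by H2-T23 (-2.40), Pdia3 (-2.13), H2-Q7 (-1.87) and Tapbpl (-1.58). Of 28 assembly factors and regulators of the proteasome 12 were higher and 0 lower, among them the inhibitor Psmf1 (1.49 ± 0.28) and the core chaperones Psmg3 (1.42 ± 0.29) and Psmg2 (1.25 ± 0.25). When only expressed genes were fitted 3 regulators were lower, as were 30.3% of expressed genes. In vehicle C the counts were 0 higher and 14 lower for interferon genes, 1 and 5 for MHC class I genes, and 10 and 0 for regulators. There 8.09% of all genes were higher and 8.46% lower. Irf1 and Nlrc5 were lower there too (-4.12 and -1.58), while Tap1 (-1.08) did not pass. Nfe2l1 (-0.90) passed in the fit over expressed genes only (-1.26, edgeR adjusted p = 0.0154).

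After 7 days of tamoxifen, constitutive subunits had fallen in MEP cells and the induced ones had not. Of the 46 genes tested, 0 rose and 18 fell, when 1.38% of all genes rose and 7.03% fell (8.42% in either direction). The 18 were 16 of 31 constitutive genes and 2 of 3 chaperones. By role, 5 of 6 ATPases fell, 4 of 7 alpha ring genes, 2 of 7 beta ring genes and 5 of 11 other cap subunits. All 31 constitutive genes had a negative log2 change, with a median of -0.77. Their summed level went from 12786 ± 357 CPM under vehicle (SD, n = 3) to 10058 ± 283 CPM (n = 3), and in 25 of 31 every day 7 library was below every vehicle library, when this held for 7.35% of all genes.

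In the fit over expressed genes 27 genes fell and 2 rose, when 19.1% of expressed genes fell and 15.2% rose (34.3% in either direction). The 27 held 24 constitutive genes, 2 chaperones and Psmc3ip, and of the 18 that fell in the fit over all genes 17 also fell here, all but Psmd12 (-0.38, edgeR adjusted p = 0.0516). The median change of the constitutive genes was -0.38, and the median of all expressed genes was 0.02. Leaving out libraries moved the count of 18 to 6 without day 7 replicate 2, to 10 without replicate 1 and to 27 without replicate 3. Without replicate 2 the genes that still fell were Psmb4, Psmb7, Psmc2, Psmd5, Psmd8 and Psmd9.

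The largest falls were in 4 genes. Psmd5, a chaperone that holds cap ATPases before assembly, read 55.5, 216 and 207 CPM under vehicle and 15.3, 21.7 and 18.6 CPM at day 7, a log2 change of -3.56 ± 0.37 (edgeR adjusted p = 1.71e-07). Psmd8, a cap subunit, read 303, 319 and 301 CPM under vehicle and 115, 82.9 and 98.3 CPM at day 7 (-2.10 ± 0.25, 1.95e-06). Psmb4 read 243, 244 and 246 CPM and then 123, 87.8 and 105 CPM (-1.67 ± 0.26, 8.36e-05). Psmd9 read 146, 203 and 146 CPM and then 106, 91.6 and 95.9 CPM (-1.22 ± 0.27, 0.00307). In all 4 genes every day 7 library was below every vehicle library, as for 7.35% of all genes. Each of the 4 also fell in the fit over expressed genes, with changes of -3.20, -1.72, -1.30 and -0.84. Psmd5, Psmb4 and Psmd8 also varied between libraries of 1 group in LSK cells at day 7 (16.4-, 3.28- and 3.22-fold), as described further on.

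Among the catalytic genes, Psmb7 fell from 145, 159 and 153 CPM to 104, 112 and 107 CPM (-0.99 ± 0.23, edgeR adjusted p = 0.00494). Psmb5 read 158, 148 and 154 CPM under vehicle and 122, 122 and 137 CPM at day 7 (-0.74 ± 0.25, 0.0779). Psmb6 overlapped, with 504, 484 and 467 CPM against 410.1, 500.0 and 444 CPM (-0.60 ± 0.25, 0.16). Neither of the last 2 passed in either fit.

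The induced genes were level or higher at day 7. Psmb8 read 48.4, 21.1 and 31.3 CPM under vehicle and 89.7, 99.2 and 119.8 CPM at day 7, so that every day 7 library was above every vehicle library. Its log2 change was 1.12 ± 0.40 in the fit over all genes, which did not pass (edgeR adjusted p = 0.0954), and 1.54 ± 0.42 in the fit over expressed genes, which did (0.0113). Psme1 read 180.3, 177 and 159 CPM under vehicle and 237, 251 and 247 CPM at day 7. Its change was 0.02 ± 0.24 in the first fit and 0.42 ± 0.15 in the second (adjusted p of 0.977 and 0.039), so whether it rose depends on the scaling. Psme2 read 160.0, 166 and 183 CPM and then 232, 227 and 246 CPM, with changes of 0.00 and 0.39, and passed in neither (0.994 and 0.0723). Psmb10 read 97.1, 66.7 and 90.9 CPM and then 112, 91.6 and 112 CPM, with changes of -0.15 and 0.23. A library range above that of vehicle was common at day 7, holding for 31.7% of all genes, and 3 of the 4 induced genes had it.

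**Figure D2:**
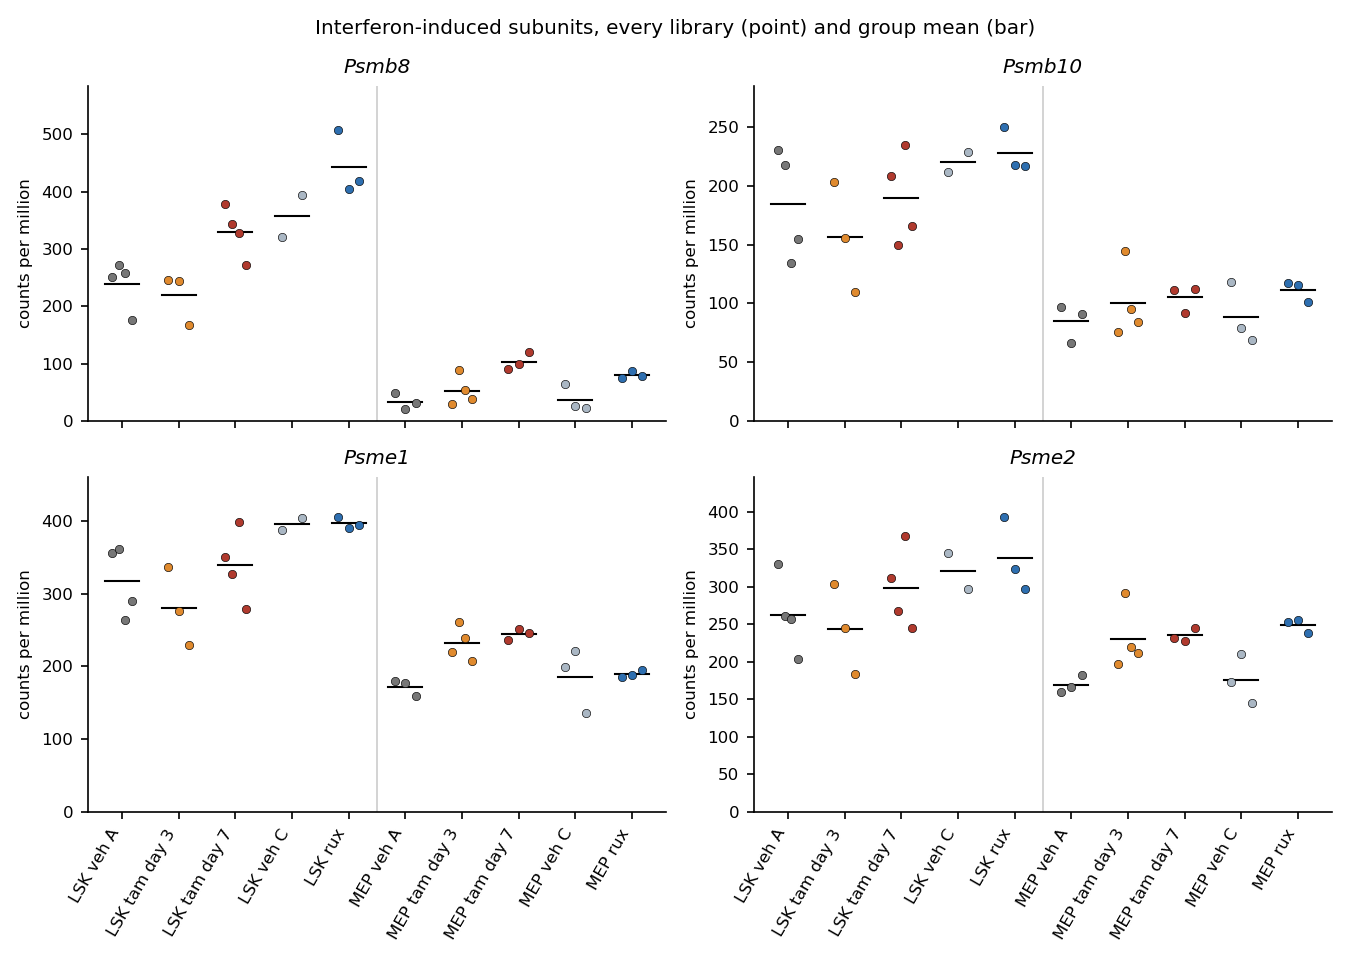
CPM of Psmb8, Psmb10, Psme1 and Psme2 (y axes, from 0) in all 32 libraries by group (x axis); points are libraries and bars are group means. In MEP cells Psmb8 stands at 21.1 to 48.4 in vehicle A and 89.7 to 119.8 at tamoxifen day 7, both below every LSK library.

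Markers of the sorted cells and of other cells changed in the same libraries. Of the 7 MEP markers 5 fell and 0 rose at day 7 (median log2 change -1.84), while 4 fell and 1 rose in the fit over expressed genes. Their sum was 7257 to 9390 CPM under vehicle and 9465 to 10265 CPM at day 7, mostly Car1. Of the 8 LSK markers 4 rose, and they summed to 290 to 538 CPM under vehicle and to 1438 to 1581 CPM at day 7, mostly Kit, with Ly6a at a mean of 1.14 CPM. The T and NK cell markers were at 7.14 to 26.1 CPM under vehicle and at 67.1 to 125 CPM at day 7, mostly Nkg7, with Trbc2 and Gzma under 1 CPM, and 1 of the 4 tested rose. B and plasma cell markers (3 of 6 rose) went from 4.45 to 6.15 CPM to 59.9 to 82.0 CPM, and neutrophil markers (2 of 6 rose) from 4.84 to 9.16 CPM to 39.9 to 69.2 CPM. Macrophage markers (0 of 8 rose) went from 12.9 to 27.8 CPM to 30.3 to 57.2 CPM. Their part in the changes of Psmb8 and of the constitutive genes was not tested.

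In the regulator list 0 of 28 genes rose and 9 fell at day 7, when 1.38% of all genes rose and 7.03% fell. Adrm1, a ubiquitin receptor of the cap, fell most (-2.78 ± 0.34, edgeR adjusted p = 2.15e-06), followed by the cap-bound thioredoxin Txnl1 (-1.78 ± 0.30), the unfoldase Vcp (-1.23 ± 0.30) and the shuttle factor Ubqln4 (-1.13 ± 0.26). Over expressed genes 8 fell and 1 rose, when 19.1% of expressed genes fell and 15.2% rose. The list's median was -0.53, against 0.21 for all genes. Nfe2l1 stood at -0.37 and did not pass. The interferon list went the other way, with 11 of 28 higher and 0 lower, led by Rtp4 (3.06 ± 0.54), Ifi44 (2.57 ± 0.41), Oasl2 (1.95 ± 0.52) and Ifit1 (1.94 ± 0.54). Irf1 and Nlrc5 stood at 1.15 and 0.67 and did not pass in either fit. Of the MHC class I genes 1 rose, H2-T23 (1.69 ± 0.35), and 3 fell, H2-D1 (-3.74 ± 0.31), Pdia3 (-2.18 ± 0.46) and Tap1 (-1.61 ± 0.48, adjusted p = 0.0322). Tap1 did not pass in the fit over expressed genes (-1.24, 0.0575).

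After 3 days of tamoxifen few of these genes passed the test in MEP cells, though most constitutive genes lay below vehicle in CPM. In MEP cells 2 genes rose and 0 fell in the fit over all genes, when 0.886% of all genes rose and 0.324% fell (1.21% in either direction). These were Psmd3, a cap subunit, and Psme3, the nuclear activator, at 2.55 ± 0.60 and 2.52 ± 0.59 (edgeR adjusted p of 0.0305 and 0.029), and the count fell to 0 without each of day 3 replicates 2, 3 and 4 or vehicle A replicates 1 and 3. Without vehicle A replicate 2 neither of them passed, and Psmd5 was the 1 gene called (1.57, edgeR adjusted p = 0.0405). Both genes vary widely between libraries of a group, as described further on. The constitutive genes had a median of -0.26, and in 23 of 31 every day 3 library lay below every vehicle library, when this held for 5.19% of all genes. Their summed level was 11071 ± 427 CPM (n = 4), between vehicle and day 7. In the fit over expressed genes 3 genes rose and 4 fell, when 6.54% of expressed genes rose and 2.93% fell (9.47% in either direction). The 4 that fell were Psmc6 (-0.51), Psmd13 (-0.40), Psmc2 (-0.31) and Psma2 (-0.30), and Psmd5 rose (1.23).

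Psmb8 read 29.7, 88.5, 53.1 and 37.8 CPM at day 3, which overlaps vehicle. Its change of 0.59 ± 0.38 did not pass in edgeR (adjusted p = 1). Psme1, at 207 to 261 CPM, and Psme2, at 197 to 291 CPM, were above every vehicle library, as were 6.04% of all genes, but passed in neither fit (0.41 and 0.42), and Psmb10 overlapped (0.21). Of the interferon list 9 of 28 genes rose and 0 fell, when 0.886% of all genes rose and 0.324% fell. The list was led by Rtp4 (2.84 ± 0.52), Ifit1 (2.24 ± 0.53), Irf7 (2.16 ± 0.30) and Isg15 (2.13 ± 0.42). Of the MHC class I genes Pdia3 (2.21 ± 0.44) and H2-T23 (1.40 ± 0.33) rose and 0 fell. None of the 28 regulators passed in edgeR in either fit, and DESeq2 called 0. In the fit over all genes 1 was at an unadjusted p under 0.05, against 6.78% of all genes. Irf1, Nlrc5, Tap1 and Nfe2l1 stood at 0.76, 0.56, 0.38 and 0.57, and none of these 4 passed.

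Between day 3 and day 7 in MEP cells, 0 genes rose and 9 fell, when 1.04% of all genes rose and 6.43% fell (7.47% in either direction). The largest falls were Psmd5 (-4.78 ± 0.38), Psmd3 (-3.40 ± 0.63), Psme3 (-3.34 ± 0.62) and Psmd8 (-1.90 ± 0.24), each also lower in the fit over expressed genes. In that fit 11 fell, when 16.9% of expressed genes fell and 8.26% rose (25.2% in either direction). The count of 9 was 5 without day 3 replicate 1, 2 or 3 or without day 7 replicate 1 or 2. Psmb4, Psmb7, Psmc1, Psmc2 and Psmd9 complete the 9. Psmb8 stood at 0.53 ± 0.37 and did not pass. This comparison shares the day 3 and day 7 libraries with those against vehicle.

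Under ruxolitinib, Psmb8 and Psme2 rose in MEP cells in edgeR's fit over all genes, and 0 of 31 constitutive genes passed there. That 0 depends on the setting: 9 constitutive genes rose with RLE factors, 12 with DESeq2, 2 over expressed genes and 4 without vehicle C replicate 3 (Psma4, Psmc6, Psmd12 and Psmd3). Over expressed genes Psme2 rose and Psmb8 did not pass. In all 2 genes rose and 3 fell, when 3.43% of all genes rose and 38.5% fell (42% in either direction). The count of 2 that rose is thus close to the background, and the count of 3 that fell is well under it. In the fit over expressed genes 3 rose (Psme2, Psma7 and Psma2) and 1 fell (Psme4), when 4.18% of expressed genes rose and 9.58% fell (13.8% in either direction). With other scalings of all genes 12 rose and 3 fell (RLE factors in edgeR) or 16 rose and 3 fell (DESeq2). The median log2 change of all genes was -0.93 and -0.95 in these 2 settings. Without vehicle C replicate 3 the count of 5 was 12, without vehicle C replicate 2 it was 3 and without ruxolitinib replicate 3 it was 8. No share over all genes is given for the counts with RLE factors, with DESeq2 or with a library left out, so they cannot be set against a background. The constitutive genes had a median of 0.30 in the first fit and 0.18 in the second, and summed to 13880 ± 286 CPM under vehicle and 14681 ± 203 CPM under ruxolitinib (n = 3 each).

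Psmb8 read 63.6, 25.3 and 21.96 CPM under vehicle C and 74.8, 87.4 and 79.0 CPM under ruxolitinib. The treated libraries all lay above the vehicle libraries, of which the first came close to them. The log2 change was 1.37 ± 0.40 in edgeR (adjusted p = 0.00975), a level 2.58 times that of vehicle, and 1.25 ± 0.42 in the fit over expressed genes, which did not pass (0.0597). Over its alternatives the change ran from 1.14 to 2.005 and the adjusted p from 0.00128 to 0.0599. Without vehicle C replicate 2 it was 1.14 and did not pass (0.0593). Psme2 read 173, 211 and 145 CPM and then 254, 255 and 239 CPM, again without overlap. Of all genes, 3.53% had every treated library above every vehicle library, and 43% had every one below. It rose by 0.74 ± 0.24 in edgeR (0.017), a level 1.67 times that of vehicle, and by 0.61 in the fit over expressed genes (0.0189).

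Psme1 and Psmb10 did not pass in either fit. Psme1 read 199, 222 and 136 CPM under vehicle C and 186, 188 and 195 CPM under ruxolitinib (0.26 ± 0.24), and Psmb10 read 118, 78.9 and 68.9 CPM and then 117, 116 and 101 CPM (0.57 ± 0.29). Psmb5, Psmb6 and Psmb7 stood at 0.33, 0.49 and 0.23 and overlapped between the groups. Psme4, whose product PA200 caps the core in place of the 19S cap, fell from 44.6, 65.0 and 53.2 CPM to 28.5, 23.9 and 36.0 CPM (-0.68 ± 0.22, edgeR adjusted p = 0.018). Psme4 did not pass without ruxolitinib replicate 2 (-0.59, 0.0763) or without vehicle C replicate 2 (-0.56, 0.0948). The other genes that fell were Psma8 and Psmb11, which are near 0 in these cells. Psma8 stood at 0.116 to 1.01 CPM under vehicle C and at 0 to 0.0654 CPM under ruxolitinib, and Psmb11 at 0.681 to 1.93 CPM and 0 to 0.216 CPM.

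Of the 28 interferon response genes 0 rose and 14 fell under ruxolitinib, when 38.5% of all genes fell, with a list median of -0.74 against -1.07 for all genes. The largest falls were in Rtp4 (-4.07 ± 0.62), Ifit1 (-2.93 ± 0.63), Ifi44 (-2.58 ± 0.48) and Usp18 (-2.33 ± 0.31). Of 23 expressed genes of the list 13 fell and 0 rose in the second fit, when 9.58% of expressed genes fell, with medians of -0.90 and 0.00. None of the 14 MHC class I genes passed in edgeR in either fit, and DESeq2 called 2. In the fit over all genes 2 were at an unadjusted p under 0.05, against 50% of all genes. Of the regulators 3 rose, among them the core chaperone Psmg4 (0.81 ± 0.25) and the deglycosylase Ngly1 (0.81 ± 0.32), and 0 fell. Irf1 and Nlrc5 stood at -0.34 and -0.48, Tap1 at 0.22 and Nfe2l1 at 0.72, and none of these 4 passed in either fit. Of the 7 MEP markers 2 rose and 2 fell. The T and NK cell list (1 of 4 tested rose, 2 fell) went from 5.09 to 29.98 CPM to 59.9 to 92.3 CPM. That sum was nearly all Nkg7, with Cd3e, Cd3g, Trbc2, Ccl5 and Gzma under 1 CPM in both groups. LSK markers (3 of 8 rose), mostly Kit, went from 175 to 448 CPM to 486 to 627 CPM, with Ly6a at means of 0.119 and 0.172 CPM. Neutrophil markers (4 of 6 fell) went from 1.06 to 4.65 CPM to 0.361 to 0.654 CPM. Their part in the rise of Psmb8 was not tested.

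**Figure D3:**
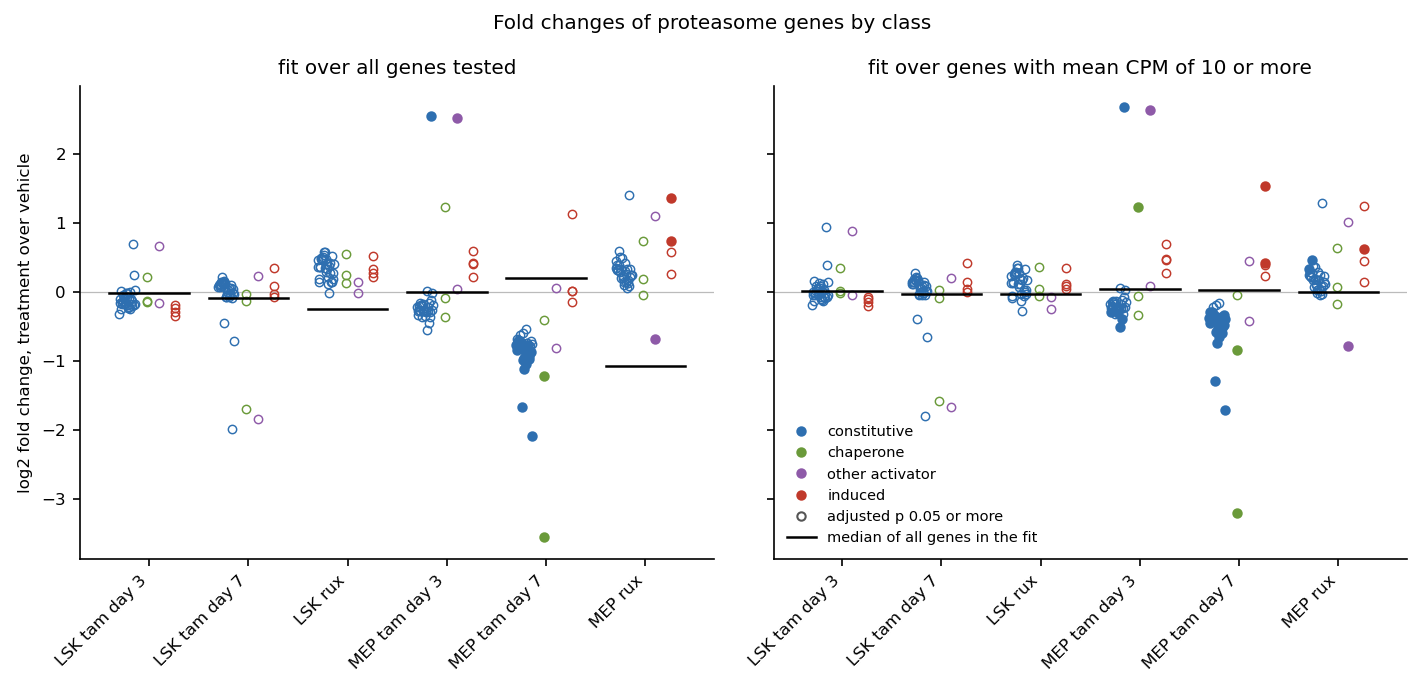
Fold changes (log2, y axis) of constitutive, chaperone, activator and induced genes in the 6 treatment comparisons (x axis), in the fit over all genes (left) and over expressed genes (right); filled points passed the test and black lines mark the median of all genes. At MEP day 7 the constitutive genes lie below 0 in both panels, and the black line for MEP ruxolitinib moves from -1.07 to 0.00.

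In LSK cells no proteasome gene passed the test in any of the 3 treatment comparisons, in either fit. At day 3 edgeR gave 0 of 46 also at an unadjusted p under 0.05, against 3.78% of all genes. DESeq2 called 0, when edgeR called 0% of all genes. At day 7 there were 5 at an unadjusted p under 0.05, against 8.93% of all genes, and 2 called by DESeq2 (Psmd3 and Psme3). There edgeR called 0.104% of all genes (0.0557% higher and 0.0483% lower) and 0.673% of expressed genes. No share over all genes is given for the DESeq2 calls. Under ruxolitinib there were 0 at an unadjusted p under 0.05, against 8.92% of all genes, and 0 called by DESeq2. There edgeR called 0.0223% of all genes (0.00743% higher and 0.0149% lower) and 0.0918% of expressed genes (0.0102% higher and 0.0816% lower). So few genes of any kind were called in these cells that the counts of 0 are close to the background.

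Psmb8 read 246, 243 and 167 CPM at day 3 and 379, 343, 327 and 272 CPM at day 7, against 251, 272, 258 and 177 CPM in vehicle A. The day 7 libraries reached higher, but the lowest of them lay just below the highest vehicle library. The changes were -0.24 ± 0.32 and 0.35 ± 0.29 in edgeR (adjusted p of 1 and 0.964). Under ruxolitinib it read 507, 404 and 419 CPM against 321 and 395 CPM in vehicle C, without overlap, as for 6.2% of all genes (0.52 ± 0.38, edgeR adjusted p = 0.644). Psme1 read 391 to 405 CPM under ruxolitinib and 387 and 405 CPM in vehicle C, and at day 7 it read 280 to 398 CPM. Psmb5, Psmb6 and Psmb7 stood at 0.15, 0.13 and 0.11 at day 7 and at 0.53, 0.57 and 0.58 under ruxolitinib, all short of the test. The median of the 46 genes was 0.05 at day 7 (-0.09 for all genes) and 0.34 under ruxolitinib (-0.25 for all genes).

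In the lists, Rtp4 (-2.54 ± 0.38, edgeR adjusted p = 0.0263) and Irf7 (-2.39 ± 0.40, 0.0498) fell under ruxolitinib in LSK cells and no other interferon gene passed in the fit over all genes. Irf9 (-1.54) and Usp18 (-1.60) passed in the fit over expressed genes. The MHC class I and regulator lists had 0 edgeR calls in all 3 LSK comparisons in the fit over all genes. At an unadjusted p under 0.05 there were 0 to 2 and 0 to 5 genes, against 3.78% to 8.93% of all genes. DESeq2 called 1 regulator at day 7. Irf1 and Nlrc5 stood at -0.49 and -0.47 under ruxolitinib and at -0.46 and -0.50 at day 7, and did not pass in either fit. Tap1 stood at -0.79 at day 7 and 0.11 under ruxolitinib, and Nfe2l1 at -0.45 and -0.41. Macrophage markers reached 1820 to 14355 CPM in LSK day 3 libraries, against 89.6 to 4886 CPM in vehicle A, and 144 to 381 CPM at day 7, and their part in the LSK values was not tested.

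Whether the responses differed between the cell types was tested directly. For day 3, day 7 and ruxolitinib, 0 of 46 genes passed in the fit over all genes, when 0.0529%, 0.458% and 0.292% of all genes did. At an unadjusted p under 0.05 there were 0, 32 and 1 genes in edgeR, against 3.51%, 11.2% and 15% of all genes. DESeq2 called 0, 7 and 0, for which no share over all genes is given. In the fit over expressed genes 17 genes responded more negatively to day 7 in MEP than in LSK cells, 15 of them constitutive, when 11.4% of expressed genes differed in either direction. Among them were Psmc2 (-0.78 ± 0.18, edgeR adjusted p = 0.00757), Psmb7 (-0.83 ± 0.22, 0.0206) and Psmd8 (-1.14 ± 0.35, 0.0365). Psmb8, at 1.03 ± 0.46, did not pass (0.134), and under ruxolitinib its difference was 1.05 ± 0.62 in the fit over all genes (0.423). A larger Psmb8 response in MEP than in LSK cells was therefore not shown.

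The balance of induced and constitutive catalytic genes was measured within each library, where the scaling of libraries drops out. Psmb8 made up 56.7 ± 5.06% of Psmb8 and Psmb5 together, per kb, in LSK vehicle A (SD, n = 4) and 10.6 ± 3.64% in MEP vehicle A (n = 3). In MEP cells the share was 18.0 ± 7.66% at day 3 (n = 4), 30.8 ± 1.87% at day 7, 9.56 ± 4.01% in vehicle C and 18.7 ± 2.21% under ruxolitinib (n = 3 each). In LSK cells the share was 55.8 ± 1.97% at day 3 (n = 3), 60.6 ± 1.16% at day 7 (n = 4), 60.6 ± 2.25% in vehicle C (n = 2) and 60.9 ± 1.56% under ruxolitinib (n = 3). The MEP day 7 share was thus above the vehicle share and below every LSK group.

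The log2 ratio of Psmb8 to Psmb5, with 0.5 CPM added to each, differed from vehicle by 1.94 at MEP day 7 and by 1.18 under MEP ruxolitinib. Both gave p = 0.1 in a two-sided exact permutation test, the smallest value that 3 libraries against 3 allow, and an adjusted p of 0.4 over the 12 tests made. Treated and vehicle libraries did not overlap in either case. At MEP day 3 the difference was 0.84 (exact p = 0.143, adjusted 0.429). For Psmb10 and Psmb7 the MEP differences were 0.82 at day 7, 0.49 at day 3 and 0.36 under ruxolitinib, with exact p of 0.1, 0.286 and 0.2. In LSK cells the 6 differences ran from -0.35 to 0.23, and none of the 12 tests passed after adjustment. Psmb10 made up 32.9 ± 5.23% of Psmb10 and Psmb7 together in MEP vehicle A and 46.3 ± 3.69% at day 7 (n = 3 each), against 67.6% in LSK vehicle A. Psmb9 and Psmb6 could not be compared, as Psmb9 had no counts.

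**Figure D4:**
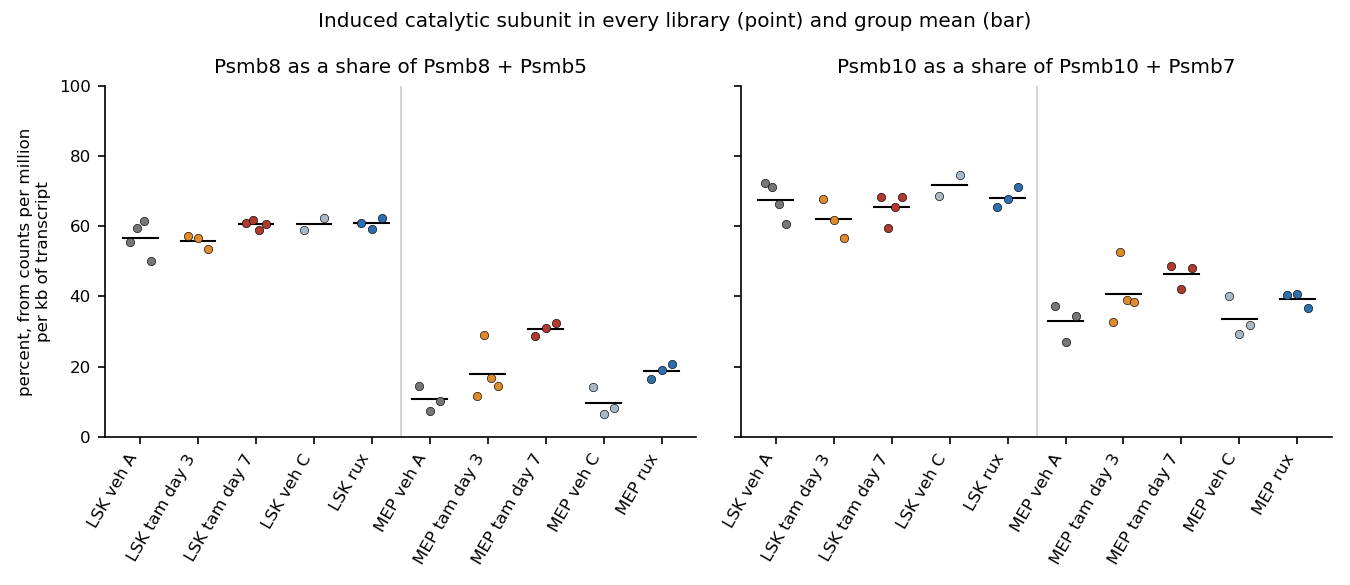
Psmb8 as a percentage of Psmb8 and Psmb5, and Psmb10 of Psmb10 and Psmb7 (y axis, percent, per kb of transcript), in every library (points) with group means (bars) by group (x axis). The MEP share of Psmb8 is 10.6% in vehicle A and 30.8% at tamoxifen day 7, and LSK groups average 55.8 to 60.9%.

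Psmd3, Psme3 and Psmd5 varied widely between libraries of 1 group, and among low genes Psma8 ranged more widely still (0.243 to 28.3 CPM in LSK vehicle A). Psmd3 read 26.8, 337, 88.0 and 235 CPM in the 4 MEP day 3 libraries, a 12.5-fold range, and Psme3 read 54.3, 533, 160 and 404 CPM in the same libraries. The same libraries were high and low for both genes, which lie on chromosome 11 but apart (chr11:98682554-98695979 and chr11:101316213-101323537, both plus strand). In MEP vehicle C, Psmd3 read 53.3, 98.8 and 335 CPM and Psme3 77.7, 130.4 and 640 CPM. Under ruxolitinib all 3 libraries were high, at 402, 443 and 258 CPM for Psmd3 and 570.1, 534 and 483 CPM for Psme3. Neither passed against vehicle C (1.41 ± 0.59 and 1.09 ± 0.58, edgeR adjusted p of 0.0596 and 0.133).

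In LSK cells Psmd3 read 17.4, 141, 94.3 and 40.6 CPM in vehicle A and 13.0, 13.7, 14.9 and 46.6 CPM at day 7. Psmd5 (chr2:34849734-34874968, minus strand) read 141, 228, 197 and 191 CPM in LSK vehicle A and 15.95, 13.2, 15.98 and 216 CPM at day 7. Psme3 read 37.1, 221, 161 and 70.3 CPM and then 27.6, 23.9, 28.9 and 80.4 CPM. Replicate 4 was the high library at day 7 for all 3 genes. With it, their changes were -1.996 ± 0.59 for Psmd3, -1.71 ± 0.67 for Psmd5 and -1.85 ± 0.55 for Psme3 and did not pass in edgeR (adjusted p of 0.206, 0.377 and 0.206). Without replicate 4 they were -2.63, -3.76 and -2.39 and passed (0.018, 8.55e-06 and 0.0208), the only proteasome genes that did. Against day 3, Psmd3 and Psme3 passed in the fit over expressed genes (-2.73 and -2.54) and not in the fit over all genes (-2.69 and -2.50), when 2.57% of expressed genes passed (2.26% lower) and 0.00743% of all genes (0.00371% in each direction).

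The batches differed in the same genes without treatment. Between vehicle C and vehicle A in MEP cells 4 genes were higher and 0 lower, when 3.52% of all genes differed. These were Psme3 (2.98 ± 0.62), Psmd3 (2.95 ± 0.63), Psmd5 (1.55 ± 0.34) and Psme4 (0.96 ± 0.23), and none of the 4 passed in the fit over expressed genes (2.61, 2.58, 1.16 and 0.62). The count fell to 0 without MEP vehicle A replicate 3 and to 1 without MEP vehicle C replicate 3. Psmb8, Psmb10, Psme1 and Psme2 stood at 0.45, 0.40, 0.44 and 0.41 and did not pass, while the median of all genes was -0.27. In LSK cells 0 of 46 passed between the vehicles, and DESeq2 called 0. At an unadjusted p under 0.05 there were 14 genes, against 13.5% of all genes. There edgeR called 0.772% of all genes (0.728% higher and 0.0446% lower) and 2.13% of expressed genes (1.9% higher). Without LSK vehicle A replicate 2, Psmd3 and Psme3 passed there (both 2.39). Psmd8 (chr7:29174188-29180701, minus strand) and Psmb4 (chr3:94884093-94886961, minus strand) also varied among LSK day 7 libraries, at 229.7, 115, 74.9 and 242 CPM and at 140.4, 91.4, 42.7 and 91.0 CPM.

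**Figure D5:**
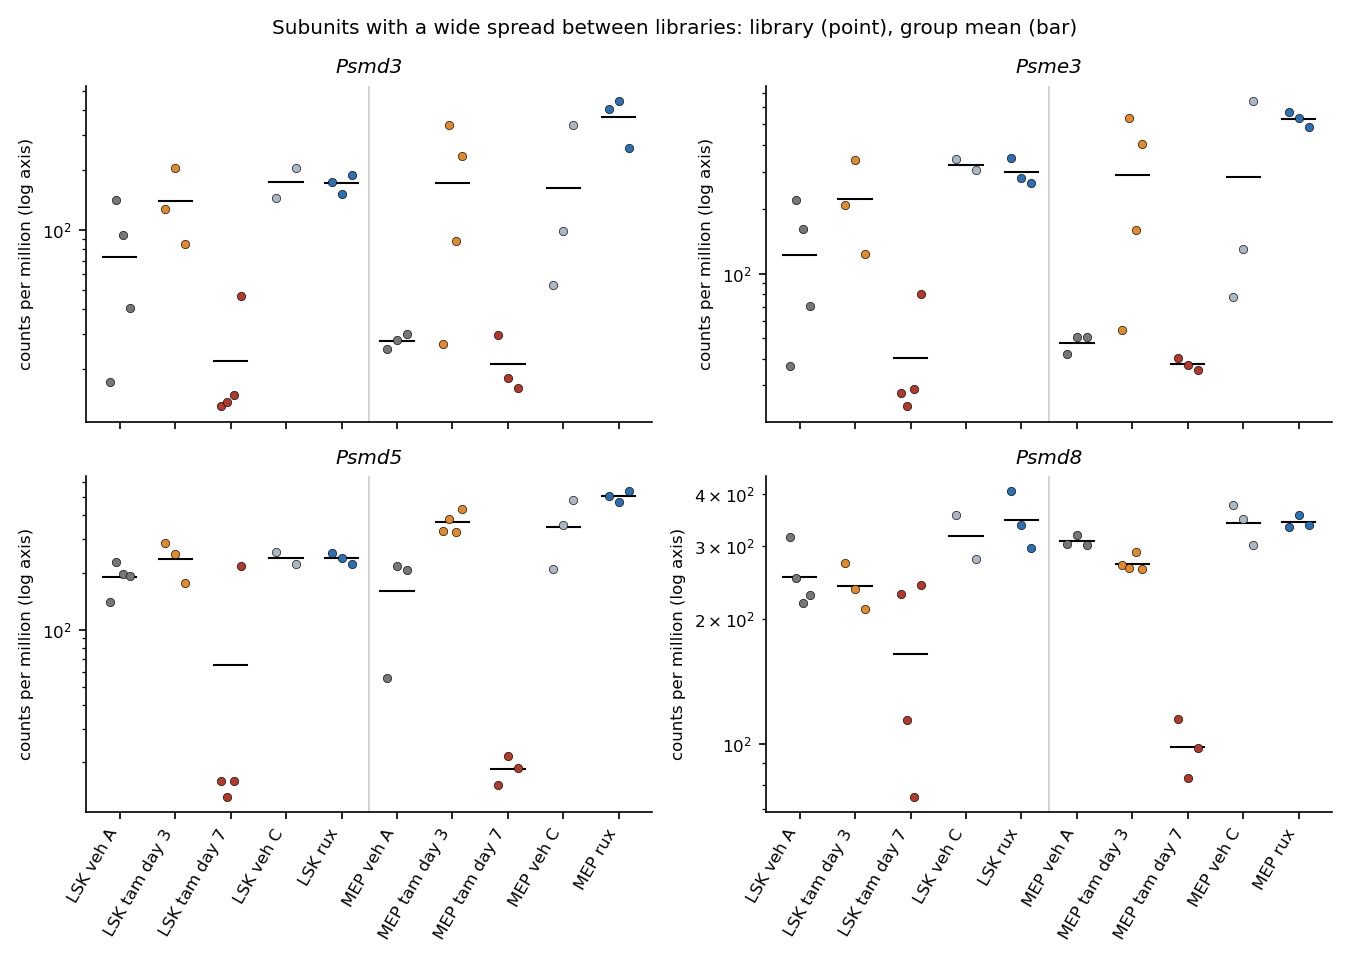
CPM on a log axis of Psmd3, Psme3, Psmd5 and Psmd8 in every library (points) with group means (bars), by group (x axis). At LSK day 7 Psmd5 lies at 13.2 to 15.98 in 3 libraries and at 216 in replicate 4.

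The remaining genes add little. Psmc3ip was at 29.7 to 55.5 CPM as a group mean, and was higher in MEP than in LSK cells under vehicle A (0.91 ± 0.28, edgeR adjusted p = 0.0172). It fell at MEP day 7 in the fit over expressed genes (-0.43, 0.0478) and not over all genes (-0.80, 0.054). Psmb5-ps, Psmb6-ps and Psme2b-ps were at group means of 6.43 CPM or less, and reads of such copies cannot be told apart from those of their parent genes with certainty. Psme2b-ps was lower in MEP than in LSK cells under vehicle A (-1.26 ± 0.40, edgeR adjusted p = 0.0263), and so was Psma8 (-2.87 ± 0.95, 0.0309), whose LSK vehicle A libraries ranged from 0.243 to 28.3 CPM. Both lost the call when single libraries were left out, Psme2b-ps without LSK vehicle A replicate 2 or 3 or MEP vehicle A replicate 2 or 3, and Psma8 without LSK vehicle A replicate 3 or 4 or any MEP vehicle A library. Psmb11 was at group means of 0.137 to 5.72 CPM.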

How the data were processed

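The deposited table holds whole-number read counts per gene, made by the authors with STAR and featureCounts on mm10, per the submitters' processing notes. Cells were sorted into TriZOL, and RNA purified on Zymo Direct-Zol columns went into Takara kits for paired-end sequencing, per the labels' protocols. No label gives tool versions, annotation or strand setting. If strand was not used, reads of overlapping genes cannot be told apart.

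Genes were tested with edgeR 4.0.16 (R 4.3.3) by quasi-likelihood tests with TMM factors and filterByExpr (minimum count 10), in 1 fit per cell type and 1 joint fit of all 32 libraries, over 15 comparisons. A second fit kept genes with a mean of at least 10 CPM. DESeq2 1.42.0, limma 3.58.1, RLE factors, no filter, a GC offset, a replicate block, the compared groups alone and leaving out each library were alternatives. Ratios within libraries were tested by exact permutation in R in 12 tests, since Psmb9 gave none. Scripts were tested on simulated data. Positions come from GENCODE M21 and promoter windows from RefSeq GRCm38.p6.

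Library totals were 11.2 M to 55.5 M counts (M, 1e6), and 933 of 33924 genes had none. Replicates were taken from the labels, and p-values measure only the spread between libraries, which may be technical. No 2 libraries of a group agreed within sampling noise (lowest chi-square per degree of freedom 12.7 over 37 pairs). Vehicle libraries of both batches carry the same numbers in their descriptions, and same-numbered vehicle libraries deviated together (correlations of 0.12 to 0.60 over 3 MEP pairs, and of 0.53 and 0.65 over 2 LSK pairs). With the replicate block vehicle C against A gave 4 calls in MEP and 0 in LSK cells, as without it.

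The genes, roles and lists were chosen with earlier results of these data known. Named are the induced and catalytic subunits and, per comparison, up to 4 called genes of largest rise and fall. From the other lists the 4 called genes of largest change are named, and Irf1, Nlrc5, Tap1 and Nfe2l1 throughout. Some genes that this rule names are not reported here. Further genes are named to complete a role or a short count, after their values were seen. Of 29 regulators listed 28 were tested.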

Additional observations from a re-analysis of the deposited data

Results flagged for a closer look

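In groups of 4 libraries, 12 of 141 gene and group combinations had 1 library far from the other 3 by Dixon's test, and chance gives about 1 in 20. LSK day 7 replicate 4 stood apart in 5 genes. It was high for Psmd3 (46.6 CPM, others 13.0 to 14.9), Psmd5 (216 CPM, others 13.2 to 15.98), Psme3 (80.4 CPM, others 23.9 to 28.9) and Psma8 (3.29 CPM, others 1.81 to 1.86), and low for Psma6 (264 CPM, others 345 to 362). In the same group Psmd7 was high in replicate 1 (347 CPM, others 284 to 294) and Psmd2 in replicate 3 (747 CPM, others 640 to 649). In LSK vehicle A, replicate 1 was high for Psmc4 (315 CPM, others 239 to 247) and Psmd13 (229 CPM, others 170 to 174), and replicate 3 was low for Psmb4 (90.9 CPM, others 123 to 127). In MEP day 3, replicate 1 was high for Psmb2 (469 CPM, others 378 to 389) and replicate 2 was low for Psmb5-ps (1.68 CPM, others 2.43 to 2.53).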

How the results depend on the processing

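Counts of proteasome genes that passed depended on the scaling and the tool. The cause of each shift was not tested. Outside the 2 main fits no share over all genes is given beside these counts. For MEP day 7 the count of 18 was 28 with RLE factors, 33 with DESeq2, 29 over expressed genes and 31 with a GC offset added to these. For MEP ruxolitinib the count of 5 was 15, 19 and 10 with RLE factors, DESeq2 and the GC offset, and 2 with the compared groups alone. For MEP day 3 the count of 2 was 7 over expressed genes and 9 with the GC offset. For MEP day 7 against day 3 the count of 9 was 16 with DESeq2 and 14 with the GC offset. For MEP vehicle C against A the count of 4 was 11 with DESeq2, 0 over expressed genes, 1 with the GC offset and 2 with the compared groups alone. The difference between cell types at day 7 went from 0 to 7 with DESeq2, 17 over expressed genes and 11 with the GC offset. LSK day 7 went from 0 to 2 with DESeq2, and LSK day 7 against day 3 from 0 to 2 with DESeq2, over expressed genes, with the GC offset and with the compared groups alone.

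With each library left out, the counts ran from 6 to 27 for MEP day 7, 3 to 12 for MEP ruxolitinib, 0 to 2 for MEP day 3, 5 to 10 for MEP day 7 against day 3, 0 to 4 for MEP vehicle C against A, 9 to 25 for MEP against LSK in vehicle C, 0 to 3 for LSK day 7 and for LSK day 7 against day 3, 0 to 2 for LSK vehicle C against A and 0 to 2 for the day 7 difference between cell types. Where a group kept 1 library, it was assumed to vary like the others. The log2 ratio of Psmb8 to Psmb5 changed sign with a library left out at LSK day 3 (-0.05, running from -0.18 to 0.042) and under LSK ruxolitinib (0.01, running from -0.082 to 0.11).

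Replicate numbers did not pair treated with vehicle libraries (correlations from -0.36 to 0.38). With the replicate block 1 gene passed at LSK day 7, 1 at LSK day 7 against day 3 and 1 at MEP day 3, 24 passed at MEP day 7, and no other count moved by over 1.5 times. A random block on the description numbers, chosen after seeing the data, gave 33 and 30 genes for MEP against LSK in vehicle A and C (34 and 27 without it). Of 35 called gene results, none changed direction in the alternatives run, and 59 of 455 of their values lost the call. Psmb10 at MEP day 7, which was not called, went from -0.15 to 0.23 over expressed genes. At 3 counts, the limit for Psmb9 is 0.054 to 0.269 CPM per library, for counting error only.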
